A study of Mus musculus with 32 samples.

Results

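The genes described here carry the signal of interleukin-6 (IL-6) and its relatives from the cell surface to the nucleus and shut it off again. The 10 genes are the receptors Il6ra, Il6st and Osmr, the kinases Jak1 and Jak2, the transcription factor Stat3, the inhibitors Socs1, Socs3 and Cish, and the repressor Bcl6. They were taken by symbol from the table of read counts, which holds 47643 gene IDs, and all 10 were found and had enough counts to be tested in both tissues. Binding of IL-6 to Il6ra brings in Il6st (gp130), the subunit shared by the whole cytokine family, and the JAK kinases attached to it phosphorylate STAT3, which enters the nucleus. Socs3 is switched on by STAT3 and blocks gp130, whereas Cish and Socs2 answer mostly to STAT5, the factor used by growth hormone. In liver this route drives the acute phase proteins, in fat it meets signals of leptin and other cytokines, and glucocorticoids are known both to curb cytokine production and to strengthen the acute phase response of hepatocytes.

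RNA came from epididymal white adipose tissue (eWAT) and liver of male C57BL/6 mice. From 10 weeks of age they drank either corticosterone (cort), the main glucocorticoid of rodents, or vehicle (veh, dilute ethanol) for 7 days. During the same days they ate either a normal-protein diet (NPD, 20% of energy from whey protein) or an isocaloric high-protein diet (HPD, 60% from whey protein) in which starch was replaced by protein. All mice were fasted before collection. Each of the 8 combinations of tissue, drink and diet had 4 libraries, and the replicate numbers were taken as separate mice, so that the p-values cover the spread between these mice. The comparisons ask how cort changed these genes on each diet, whether the diet changed them with and without cort, and whether fat and liver differed in the response.

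QuantSeq makes 1 read per transcript near its 3′ end. A count therefore does not grow with gene length, and levels of different genes can be set side by side. Total counts lay between 8933307 and 18057936. The liver library Veh HPD replicate 4 stood apart, with a median correlation of 0.898 with the other liver libraries against 0.950 to 0.964 for those, and was left out as the rule for the members sets, so liver Veh HPD had 3 mice. Values with all 16 liver libraries are given where they differ. The library of eWAT Cort HPD replicate 4 held transcripts of epididymis, with 9344 CPM (counts scaled to the size of the library) over 12 marker genes against at most 6.63 in any other eWAT library. The 5 adipocyte markers summed to between 24979 and 32842 CPM in eWAT and at most 84.3 in liver, and the 5 hepatocyte markers to at least 68437 in liver and at most 89.6 in eWAT. Among 12 known targets of the glucocorticoid receptor, Fkbp5 rose with cort on the NPD by 1.74 ± 0.39 (log2, SE) in eWAT and by 2.23 ± 0.48 in liver, and on the HPD it was called in neither tissue. Of the 12, cort called 4 higher and 0 lower in eWAT and 1 higher and 0 lower in liver with the NPD, and 2 higher and 2 lower in eWAT and 0 higher and 4 lower in liver with the HPD. Over all genes the shares called higher and lower were 4.05% and 3.93% in eWAT and 6.84% and 5.79% in liver with the NPD, and 3.46% and 2.63% in eWAT and 4.75% and 5.14% in liver with the HPD. Throughout, a gene was called where edgeR's quasi-likelihood test gave a Benjamini-Hochberg adjusted p under 0.05 over all genes tested, and CPM were scaled with TMM factors within a tissue unless said otherwise.

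In eWAT of Veh NPD mice the kinase Jak1 was the most abundant of the 10 genes, at 319 ± 41.7 CPM (SD, n = 4). Stat3 followed at 158 ± 6.40 and Il6st at 151 ± 11.2 CPM, and the ranges of these 2 genes overlapped. Il6ra had 65.4 ± 11.97 and Bcl6 46.8 ± 34.5 CPM, again with overlap, and Bcl6 reached down to the range of the next 2 genes. Osmr (19.7 ± 4.001) and Jak2 (18.6 ± 3.19) could not be ranked against each other, and Socs3 (8.45 ± 2.78) overlapped with Cish (4.43 ± 1.47). Socs1 was last at 1.35 ± 0.908 CPM, from 3 to 38 reads per library. In liver of the same group Jak1 (117 ± 12.2 CPM) and Stat3 (112 ± 37.4) led and overlapped. Il6st had 56.1 ± 5.89, Il6ra 36.4 ± 9.50, Bcl6 28.6 ± 21.5, Socs3 13.1 ± 8.54 and Cish 12.4 ± 10.8 CPM, of which Il6st and Il6ra were each separated from the genes after them apart from Bcl6. Jak2 stood at 6.81 ± 1.12 CPM, Osmr at 1.53 ± 0.529 and Socs1 at 0.576 ± 0.345, the last from 1 to 11 reads per library. The ligands themselves were near the limit of detection: Il6 had 28 reads in all 16 eWAT libraries together and 8 in the 15 liver libraries.

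**Figure D1:**
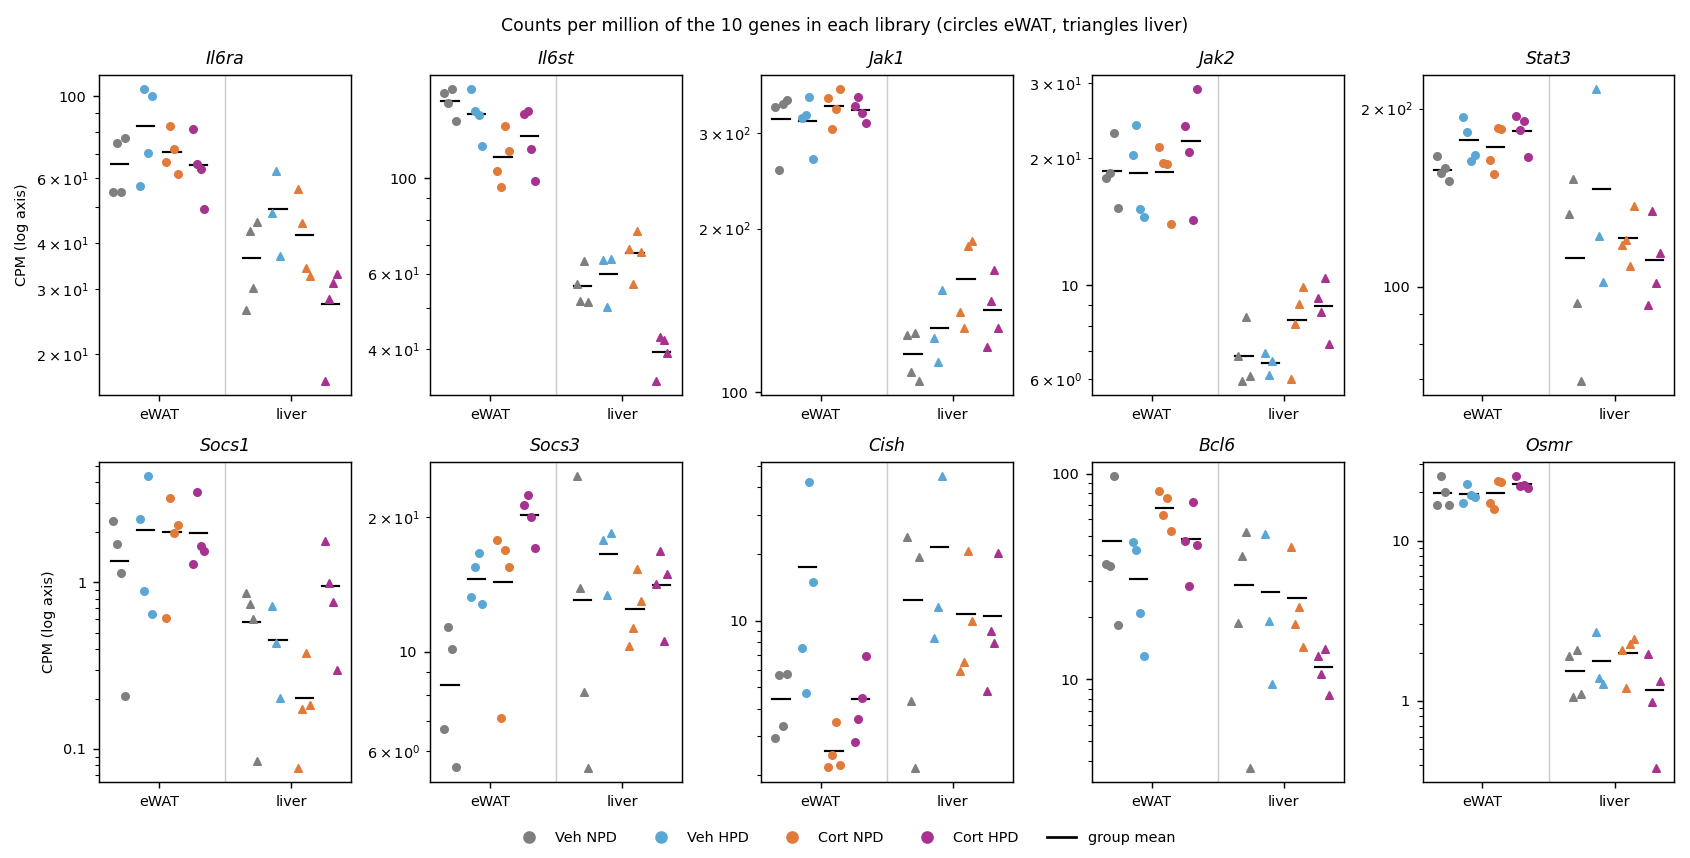
Each panel plots one of the 10 genes as CPM on a log axis, with 1 point per library, circles for eWAT and triangles for liver, colours for the 4 groups and bars for group means. CPM were scaled within each tissue, so circles and triangles cannot be compared in height. In liver all 4 Cort HPD points of Il6st lie between 33.8 and 42.9 CPM, below every other liver point.

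Liver and eWAT differ so much in composition that the scaling decides part of the contrast between them. With TMM factors over both tissues, 6 of the 10 genes differed between liver and eWAT of Veh NPD mice, where 62.7% of all genes did. Osmr, the receptor of oncostatin M, was lower in liver by 2.62 ± 0.30 on the log2 scale (adjusted p = 2.81e-09), at 2.22 ± 0.771 CPM on that scale against 13.9 ± 2.87 in eWAT. Socs3 was higher in liver by 1.67 ± 0.31 and Cish by 2.55 ± 0.74, Il6st was lower by 0.39 ± 0.14 and Jak1 by 0.40 ± 0.14, and Stat3 was higher by 0.54 ± 0.18. Using library totals in place of TMM factors moved the median of all genes by −1.02. On that scale Osmr (−3.64), Il6st (−1.40) and Jak1 (−1.42) stayed lower in liver, Jak2 (−1.43) and Il6ra (−0.85) were called lower too, the calls of Socs3 (0.68, adjusted p = 0.0640) and Cish (1.495, adjusted p = 0.0704) were lost, and Stat3 turned to −0.46 with an adjusted p of 0.0508. The Stat3 call was also lost without liver Veh NPD replicate 1 (0.44, adjusted p = 0.0508) or 2 (0.37, adjusted p = 0.0908), that of Jak1 without eWAT replicate 4 (−0.33, adjusted p = 0.0656), and that of Il6st without eWAT replicate 1 or 3 or liver replicate 2 (adjusted p = 0.0543, 0.0578 and 0.0502).

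Il6st, the shared signalling subunit, was the one gene of the 10 called lower with cort in eWAT of mice on the NPD. Its 4 Veh NPD libraries had 158, 149, 161 and 136 CPM and its 4 Cort NPD libraries 104, 95.5, 132 and 116 CPM. The groups did not overlap, although Cort NPD replicate 3 came within a few CPM of Veh NPD replicate 4. The log2 fold change was −0.43 ± 0.13 with an adjusted p of 0.0438. No other gene of the 10 was called in this comparison, in which 7.98% of all genes were. The call sat close to the threshold and ended in 6 of the 8 fits that left out 1 library, namely without Veh NPD replicate 1, 2 or 3 (adjusted p = 0.1001, 0.0728 and 0.118) and without Cort NPD replicate 1, 2 or 4 (adjusted p = 0.137, 0.153 and 0.0787). Over all 8 fits the fold change lay between −0.52 and −0.36. The 7 stromal and mesothelial markers moved with it, from a summed 3578 to 4272 CPM in Veh NPD to 2246 to 2461 in Cort NPD, with all 7 detected. Their part in the result was not tested, and in whole tissue fewer cells of a type cannot be told apart from less RNA per cell.

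On the HPD, Il6st in eWAT had 161, 143, 139.9 and 119 CPM with veh and 141, 143, 117 and 98.6 CPM with cort. The groups overlapped in most of their range, and the change of −0.17 ± 0.13 was not called. The test of the interaction, the cort effect with HPD minus that with NPD, did not call Il6st (0.26 ± 0.19, adjusted p = 0.988). The same stromal list was lower with cort on the HPD too, at 2482 to 2837 CPM against 3806 to 4038.

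In liver the course of Il6st was another one. Veh NPD libraries had 56.8, 51.9, 64.2 and 51.5 CPM, Veh HPD libraries 64.5, 50.2 and 64.8, and Cort NPD libraries 68.4, 56.7, 75.4 and 67.2. These 3 groups overlapped. The Cort HPD libraries, at 33.8, 42.9, 42.0 and 39.3 CPM, lay below all of them. Among cort-treated mice, the HPD thus went with less Il6st than the NPD, by −0.76 ± 0.14 on the log2 scale (adjusted p = 0.0022), a 1.69-fold difference. It was the one gene of the 10 called there, where 5.88% of all genes were called. The call held under every alternative tried, with adjusted p-values of at most 0.00868, and with each library left out, where the highest was 0.0144. With all 16 liver libraries the change was −0.75.

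Cort on the HPD lowered Il6st in liver by 0.60 ± 0.15 relative to veh (adjusted p = 0.0133). This call ended when Veh HPD replicate 1 (−0.55, adjusted p = 0.0649) or 3 (−0.54, adjusted p = 0.0623) was left out, and it held with all 16 libraries (−0.58, adjusted p = 0.0146). On the NPD the change with cort was 0.25 ± 0.14 and not called. The interaction was −0.85 ± 0.21 with an adjusted p of 0.112 by edgeR, while DESeq2 called it (−0.84, adjusted p = 0.0190). The Cort HPD livers also differed in their markers. The 5 endothelial markers summed to 29.0 to 43.2 CPM there against 56.5 to 72.4 in Veh HPD and 45.0 to 87.1 in Cort NPD, the 5 red blood cell markers to 5271 to 7622 against 1913 to 3469 and 1358 to 3544, and the 5 hepatocyte markers to 140876 to 245209 against 68437 to 75668 and 99653 to 123397. All of these markers were detected, and their part in the result was not tested. Library totals in place of TMM factors moved the median of all genes in the cort comparison on the HPD by −0.24 and in the diet comparison under cort by −0.17, and Il6st was called lower in both on that scale as well.

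On the NPD the cort effect on Il6st differed between the tissues. In the fit of both tissues it was higher in liver than in eWAT by 0.73 ± 0.20 (adjusted p = 0.0269), and no other gene of the 10 passed that test, where 3.85% of all genes did. The call ended in 9 of the 16 fits that left out 1 library. These lacked eWAT Veh NPD replicate 1, 2 or 3 (0.66, 0.69 and 0.65), eWAT Cort NPD replicate 1, 2 or 4 (0.65, 0.61 and 0.69), liver Veh NPD replicate 2 or 4 (0.69 and 0.70) or liver Cort NPD replicate 3 (0.67), with adjusted p-values from 0.0551 to 0.0982. It was also lost with library totals (0.76, adjusted p = 0.0580). On the HPD, where cort lowered Il6st in liver, the difference was −0.47 ± 0.20 and not called (adjusted p = 0.243), and 0 of the 10 genes passed by edgeR, DESeq2 or limma voom, against 3.12% of all genes by edgeR. At the looser unadjusted p under 0.05, to which that share does not apply, there were 3, namely Il6st, Osmr and Bcl6.

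Il6ra, which binds IL-6 itself and sets which cells can hear it, moved beside Il6st in the Cort HPD livers. Veh HPD livers had 48.4, 62.9 and 36.8 CPM and Cort HPD livers 17.0, 28.2, 31.2 and 32.97 CPM. The groups did not overlap, and Cort HPD replicate 1 was the lowest of all liver libraries. Il6ra fell by 0.85 ± 0.25 on the log2 scale (adjusted p = 0.0362), so that 2 of the 10 genes, Il6st and Il6ra, were called for cort on the HPD in liver, where 9.89% of all genes were. This call was less firm than that of Il6st. With the left-out library Veh HPD replicate 4, whose Il6ra level by library total was 19.0 CPM against 40.7 to 62.4 in the other 3, the change was −0.54 with an adjusted p of 0.373. Leaving out Veh HPD replicate 1 (−0.87, adjusted p = 0.0862) or 2 (−0.62, adjusted p = 0.181) also ended the call, as did leaving out replicate 1 (−0.68, adjusted p = 0.0787) or 2 (−0.86, adjusted p = 0.0693) of Cort HPD.

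Between diets under cort, Il6ra in liver changed by −0.62 ± 0.23 (adjusted p = 0.127), with Cort NPD livers at 56.0, 45.5, 34.4 and 32.6 CPM. The lower end of the Cort NPD group met the upper end of the Cort HPD group. In eWAT Il6ra was between 49.5 and 105 CPM in the 16 libraries, and no comparison called it. Osmr was steady in eWAT, between 15.7 and 25.2 CPM over all libraries. In liver it stood on 5 to 48 reads per library, and its changes there (−0.64 ± 0.45 with cort on the HPD, −0.80 ± 0.42 with the HPD under cort) were not called.

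**Figure D2:**
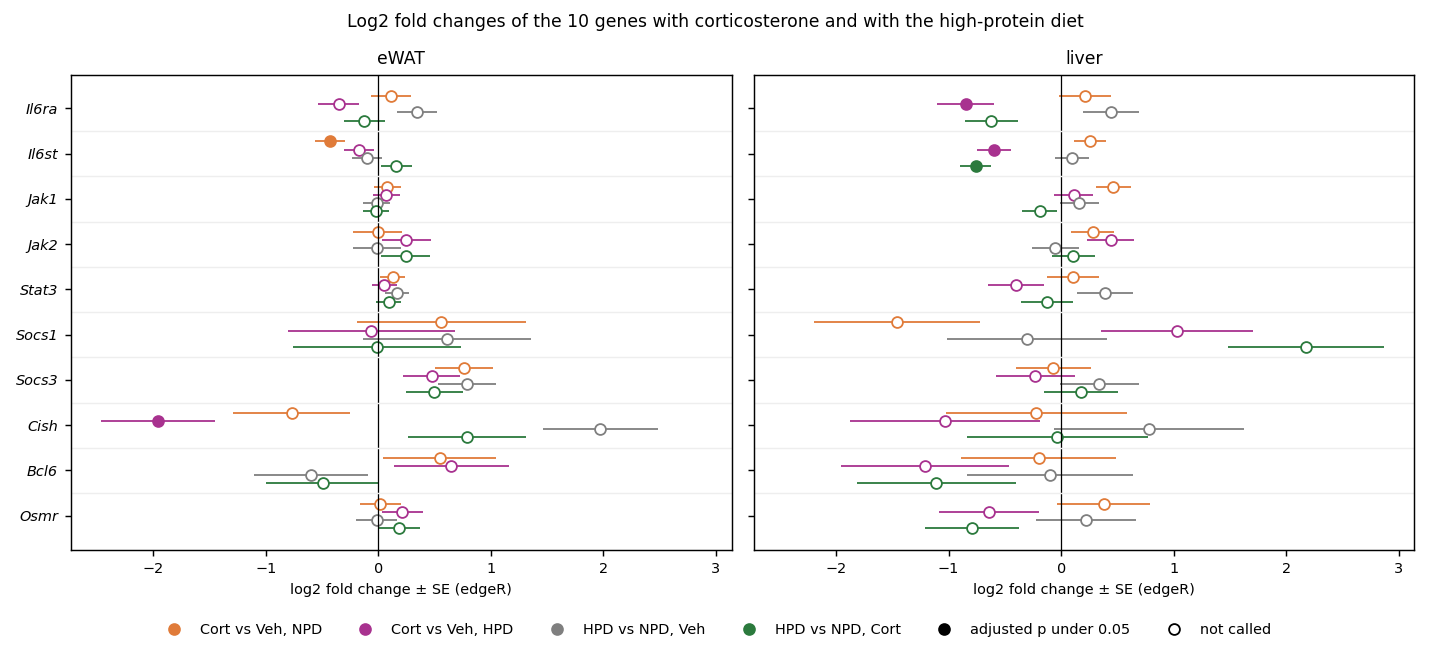
The log2 fold change of each gene with its SE (edgeR) is drawn for 4 comparisons in eWAT (left) and liver (right), filled where the adjusted p was under 0.05. Filled points are few: Il6st in 3 comparisons, Il6ra in liver and Cish in eWAT, while the wide bars of Socs1, Cish and Bcl6 show the genes with few reads or large differences between mice.

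Neither kinase was called in any comparison within a tissue by edgeR with all libraries. Jak1, the main kinase on gp130, was at 257 to 361 CPM in all 16 eWAT libraries, and Jak2, which serves the growth hormone and leptin receptors as well, at 14.0 to 29.1 CPM. In liver Jak1 had 127, 109, 128 and 105 CPM in Veh NPD and 140.3, 131, 186 and 190 in Cort NPD mice. All 4 Cort NPD libraries exceeded the Veh NPD ones, and the change of 0.46 ± 0.16 had an adjusted p of 0.0566. With that, 0 of the 10 genes were called for cort on the NPD in liver by edgeR, although 12.6% of all genes were. By limma voom 0 were called as well, and 1 gene, Jak1, had an unadjusted p under 0.05. DESeq2 called Jak1 (adjusted p = 0.0405), as did the fit of only the groups compared (0.0472) and the fits without Cort NPD replicate 1 (0.53, adjusted p = 0.0463) or 2 (0.55, adjusted p = 0.0377). On the HPD the change of Jak1 in liver was 0.11 ± 0.17, and −0.13 with library totals.

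Jak2 in liver stood at 6.92, 6.14 and 6.62 CPM in Veh HPD and at 9.33, 8.66, 10.4 and 7.28 CPM in Cort HPD mice. These groups did not overlap, but the change of 0.44 ± 0.21 was not called (adjusted p = 0.196). Jak1 shares its locus with Raver2 and Stat3 with Stat5a on opposite strands. Whether the counting used strand is not given in the sources used here, so reads of these pairs may be mixed. Raver2 had 3943 reads in all against 105939 of Jak1, and Stat5a 7731 against 66888 of Stat3.

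Stat3, the factor on which the receptors converge, hardly varied in eWAT. Its 16 libraries lay between 150.8 and 194 CPM, and the changes with cort were 0.13 ± 0.11 in mice fed the NPD and 0.05 ± 0.11 in those fed the HPD. The SD of its log2 CPM within groups was 0.104, which placed it at percentile 0.751 of the 15187 genes tested in eWAT, and that of Jak1 (0.143) at percentile 4.69. These percentiles are over genes of all read counts. Stat3 and Jak1 had medians of 2408 and 4886 reads per eWAT library, and they were not set against genes of like count. In liver Stat3 was more variable, with 133, 152, 93.9 and 69.4 CPM in Veh NPD and 216, 122 and 102 in Veh HPD mice. The cort-treated livers covered 93.3 to 137 CPM, inside the span of the vehicle groups, and no comparison within liver called Stat3.

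Socs3, the STAT3-induced brake on gp130, had its lowest values in eWAT of Veh NPD mice, with 6.73, 11.4, 10.1 and 5.51 CPM. Veh HPD mice had 13.3, 15.5, 16.7 and 12.8 CPM, Cort NPD mice 17.8, 7.12, 16.9 and 15.5, and Cort HPD mice 21.4, 22.4, 20.0 and 17.1. The Cort HPD group lay above all Veh libraries of both diets, and Veh NPD and Veh HPD did not overlap. None of these differences was called: cort on the NPD gave 0.76 ± 0.26 (adjusted p = 0.0689), cort on the HPD 0.47 ± 0.25 (adjusted p = 0.319) and the HPD under veh 0.79 ± 0.26 (adjusted p = 0.324). Without Cort NPD replicate 2, the low library of its group, cort on the NPD gave 0.99 with an adjusted p of 0.0106, and without Veh NPD replicate 2 it gave 0.94 with an adjusted p of 0.0381. In liver Socs3 ranged from 5.50 to 24.7 CPM within the Veh NPD group alone, and its changes with cort were −0.07 ± 0.33 on the NPD and −0.23 ± 0.35 on the HPD.

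Cish, an inhibitor that STAT5 induces, had the largest fold change of the 10 genes in eWAT. Veh NPD mice had 2.96, 5.66, 3.36 and 5.72 CPM and Cort NPD mice 2.17, 2.47, 3.47 and 2.23 CPM. Veh HPD mice had 7.55, 4.70, 42.4 and 14.9 CPM and Cort HPD mice 2.82, 3.58, 4.45 and 6.89 CPM. Replicate 3 of Veh HPD stood far above every other eWAT library, and the Veh HPD and Cort HPD groups still overlapped through Veh HPD replicate 2. Cish was lower with cort on the HPD by 1.96 ± 0.51 on the log2 scale (adjusted p = 0.0250), as the one gene of the 10 called where 6.09% of all genes were. Without Veh HPD replicate 3 the change was −1.02 with an adjusted p of 0.194. The call was also lost without Cort HPD replicate 1, 2 or 3 (adjusted p = 0.0840, 0.0800 and 0.0743), with limma voom (−1.42, adjusted p = 0.188), in the fit of only the groups compared (adjusted p = 0.191) and without the filter on low counts (adjusted p = 0.0505). It held without Cort HPD replicate 4, the library with epididymis transcripts. In Cort HPD eWAT the 5 red blood cell markers summed to 12684 to 25856 CPM against 5251 to 9273 in Veh HPD, and the 7 stromal and mesothelial markers to 2482 to 2837 against 3806 to 4038, all of them detected. Their part in the result was not tested.

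The HPD under veh gave a Cish change of 1.97 ± 0.51 in eWAT, with an adjusted p of 0.160. Of all genes only 0.0593% were called there, and of the 10 genes 0 by edgeR, DESeq2 or limma voom. At the looser unadjusted p under 0.05, to which that share does not apply, 2 passed (Cish and Socs3). Without Veh HPD replicate 2 Cish was called (2.28, adjusted p = 0.0370). The HPD under cort in eWAT called 0 of the 10 genes against 0.487% of all genes, and the HPD under veh in liver 0 against 0.169%. The interaction of diet and cort called 0 of the 10 genes in eWAT, where 0.0132% of all genes passed. In these 3 comparisons DESeq2 and limma voom called 0 too, and 0 of the 10 had an unadjusted p under 0.05. In liver the interaction called 0 of the 10 by edgeR and limma voom, where 0.113% of all genes passed by edgeR. At the looser unadjusted p under 0.05, to which that share does not apply, 3 of the 10 passed, Il6st, Il6ra and Socs1. Cish in liver was spread over 2.16 to 44.8 CPM, and no comparison within liver called it.

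Socs1, which binds JAKs directly, had too few reads for firm statements. In liver the counts were 11, 7, 7 and 1 in Veh NPD, 13, 5 and 3 in Veh HPD, 1, 2, 5 and 3 in Cort NPD and 21, 17, 10 and 4 in Cort HPD libraries. Cort HPD held the highest counts and overlapped with every other group at its lower end. The HPD under cort gave 2.18 ± 0.70 on the log2 scale with an adjusted p of 0.0653, and DESeq2 called it (2.24, adjusted p = 0.0347), as did edgeR without Cort HPD replicate 4 (2.47, adjusted p = 0.0415). In eWAT Socs1 had 3 to 71 reads per library and no comparison called it.

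Bcl6, a repressor that competes with STAT proteins for their DNA sites, varied widely between mice of one group. In liver the Veh NPD mice had 18.8, 39.8, 52.0 and 3.72 CPM, a 14.0-fold span. Veh HPD mice had 50.8, 19.2 and 9.46 CPM, Cort NPD mice 44.0, 18.6, 22.6 and 14.3, and Cort HPD mice 12.97, 10.6, 14.1 and 8.39. All Cort HPD values lay below those of Cort NPD, but with this spread the change of −1.11 ± 0.71 was not called (adjusted p = 0.405). The SD of log2 CPM within groups was 1.10 for Bcl6 and 1.18 for Cish in liver, percentiles 99.1 and 99.5 of the 12391 genes tested there, against a median of 0.325. In eWAT Bcl6 had 36.4, 35.4, 97.0 and 18.3 CPM in Veh NPD and 81.9, 62.8, 75.7 and 52.4 in Cort NPD mice, and neither cort comparison called it (0.54 ± 0.50 and 0.65 ± 0.51).

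The letters that STAT dimers are known to prefer, TTCNNNGAA, were searched on both strands in RefSeq promoter windows of GRCm38.p6, each from 250 bases before to 50 after an annotated start. The motif reads the same on both strands, so each match counts once. Of 32851 windows, 8.30% held it. Among the 11 windows of the 10 genes, 4 did, those of Cish, Socs3 and both starts of Bcl6. All matches in these windows are shown, with the motif in capitals. Whether they bear on the levels of these genes was not tested.
Cish, chr9:107296654-107296683, plus strand, in an exon (UTR), the first match beginning at the start base: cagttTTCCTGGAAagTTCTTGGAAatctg
Socs3, chr11:117969502-117969530, minus strand, intron, 154 bases before the start: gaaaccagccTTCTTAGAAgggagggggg
Bcl6, upstream start, chr16:23988952-23988980, minus strand, outside the gene, 118 bases before the start: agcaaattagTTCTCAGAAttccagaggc
Bcl6, second start, chr16:23981433-23981461, minus strand, intron, 168 bases before the start: aggccgcggcTTCCTGGAAagttacttct
Bcl6, second start, chr16:23981387-23981415, minus strand, intron, 122 bases before the start: ggcaggagtgTTCTGTGAAatccttagag
Bcl6, second start, chr16:23981353-23981381, minus strand, intron, 88 bases before the start: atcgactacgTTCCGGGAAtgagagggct
The second Bcl6 window held 3 matches in all, where 0.0335% of windows held at least 3, and the Cish window 2, where 0.457% held at least 2. A match is only a description of these letters.

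Differences between mice were compared as deviations of log2 CPM from the group mean, in 100 relations, the 45 pairs of genes within each tissue and each gene between the tissues. None passed adjustment over the 100. An unadjusted permutation p under 0.05, which chance alone gives in some of 100 relations, was reached by 10. Bcl6 in eWAT and liver libraries of the same group and number gave r = 0.797 (two-sided permutation p = 0.00981 within groups, adjusted p = 0.293, n = 15). Spearman's rho was 0.736 (permutation p = 0.0124, adjusted p = 0.310), and r was 0.607 without the 2 libraries farthest from the median. Whether the same number means the same mouse is not stated in the labels. Cish gave r = 0.549 (permutation p = 0.0616, adjusted p = 0.520) with a rho of 0.532 (permutation p = 0.0832, adjusted p = 0.556) and r = 0.460 without 2 libraries, and Veh HPD replicate 3 had the highest Cish of all libraries in both tissues, at 42.4 and 44.8 CPM.

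Within liver, Cish and Bcl6 deviated in opposite directions, with r = −0.737 (permutation p = 0.0198, adjusted p = 0.397, n = 15), a rho of −0.764 (permutation p = 0.0108, adjusted p = 0.310) and r = −0.771 without 2 libraries. Within eWAT, Il6st and Stat3 deviated together, with r = 0.802 (permutation p = 0.00207, adjusted p = 0.205, n = 16), a rho of 0.788 (permutation p = 0.00299, adjusted p = 0.299) and r = 0.737 without 2 libraries. Of the 10 genes, 9 had a coefficient above 0 between tissues, Jak2 being the exception. These coefficients rest on the same 15 pairs of libraries, none passed adjustment, and the share over all genes is not given here. No batch was named in the labels, so values within batches could not be given.

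**Figure D3:**
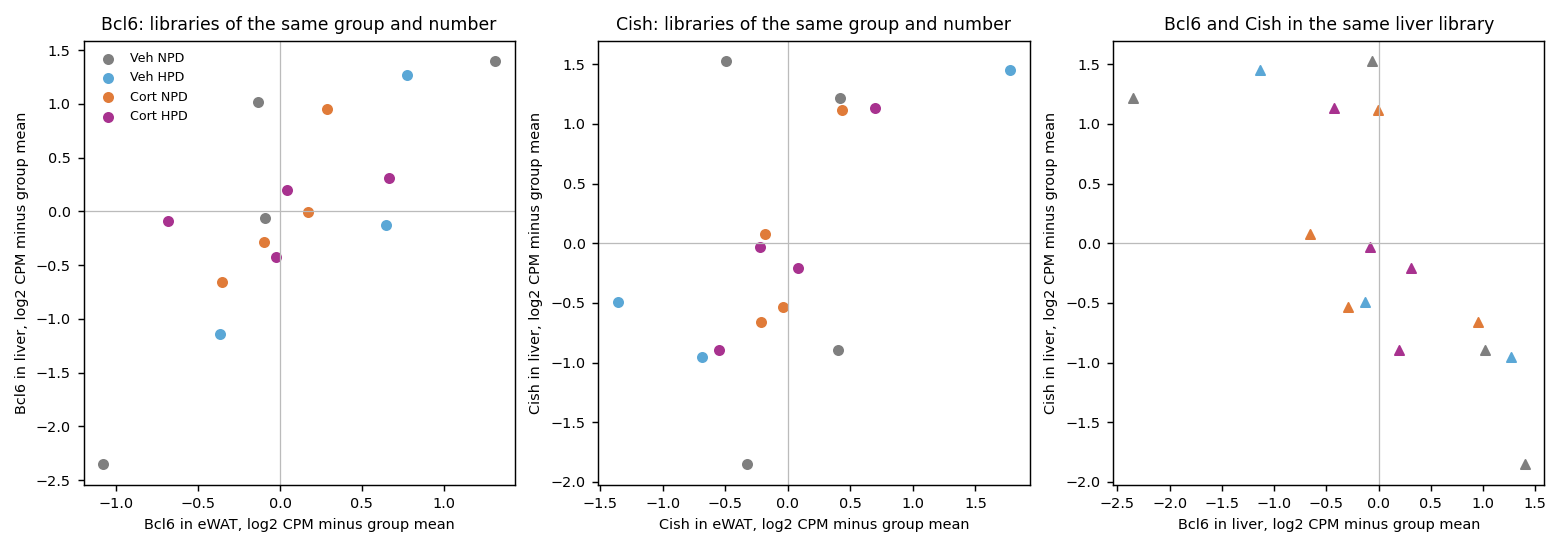
Points are deviations of log2 CPM from the group mean, coloured by group: Bcl6 in eWAT against liver (left), Cish in eWAT against liver (middle), and Bcl6 against Cish in the same liver library (right, triangles). The left cloud slopes upward (r = 0.797) and the right one downward (r = −0.737), and neither passed adjustment over the 100 relations computed.

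The genes around the 10 were read from lists of the pathway. Of 10 ligands of the IL-6 family, 4 could be tested in eWAT and 2 in liver, and 0 were called with cort in any of the 4 comparisons. Shares over all genes were 7.98% and 6.09% in eWAT and 12.6% and 9.89% in liver, on the NPD and the HPD. The most counted ligand was Ctf1 (cardiotrophin-1), with 620 reads in eWAT. Of 18 other JAK-using receptors tested in eWAT, cort on the NPD called 1 higher and 3 lower (median log2 fold change 0.01, all genes −0.02), where 4.05% of all genes were called higher and 3.93% lower. The higher one was Prlr, the prolactin receptor, at 66.0 ± 3.54 CPM against 36.9 ± 5.14 with veh, a change of 0.84 ± 0.16. Prlr was not called with cort on the HPD. The HPD under veh called it higher too (1.05 ± 0.16), the 1 of 18 called there, where 0.0593% of all genes were. That diet call was not followed through other settings. The 3 lower with cort on the NPD were Epor (−1.83 ± 0.53), the erythropoietin receptor, and Csf2rb (−0.98 ± 0.25) and Il2rg (−1.31 ± 0.34), subunits of receptors on blood cells. The Cort and Veh libraries of Il2rg overlapped, and its call here was not followed through other settings. Of 15 other inhibitors 0 were called higher and 2 lower, at a median of −0.10: Ptprc (CD45), a phosphatase of leukocytes (−1.69 ± 0.20), and Socs2 (−0.74 ± 0.23). The 7 macrophage markers summed to 578 to 696 CPM in these mice against 665 to 814 with veh, and the 8 markers of T, NK and B cells to 1.18 to 4.36 against 1.998 to 21.2, with 7 of 7 and 2 of 8 at a mean over 1 CPM. Their part in the result was not tested. Where 3.46% of all genes were called higher and 2.63% lower, on the HPD, the receptor Il10rb was higher (0.58 ± 0.14) and Il2rg lower (−1.24 ± 0.34) at a list median of −0.10. Of the inhibitors Ptprc alone was called lower there (−0.64 ± 0.20), with 0 called higher and a median of −0.00.

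In liver, 3 of 15 such receptors were called lower with cort on each diet and 0 higher. The list medians were −0.25 on the NPD and −0.29 on the HPD (all genes −0.01 and −0.00). Of all genes, 6.84% were called higher and 5.79% lower on the NPD, and 4.75% and 5.14% on the HPD. Lifr, the partner of gp130 for leukemia inhibitory factor, went from 105 ± 18.9 to 39.8 ± 4.50 CPM on the NPD (−1.40 ± 0.18) and from 117 ± 35.3 (n = 3) to 30.8 ± 2.97 on the HPD (−1.93 ± 0.19). Both Lifr calls held under every alternative and with each library left out. Ghr, the growth hormone receptor, fell by 0.87 ± 0.18 on the NPD and by 0.85 ± 0.19 on the HPD, calls that were lost with all 16 liver libraries (adjusted p = 0.101 and 0.289) and, on the HPD, without Veh HPD replicate 3 (−0.57, adjusted p = 0.0762). The third was Il2rg (−2.40 ± 0.45 and −1.47 ± 0.45), at 0.440 and 0.624 CPM with cort. The 8 markers of T, NK and B cells summed to 1.79 to 3.51 CPM in livers with veh and to 0 to 0.851 with cort, with 1 of the 8 at 0 throughout and 0 of 8 at a mean over 1 CPM, and their part in the result was not tested. In eWAT the Lifr changes were 0.03 and −0.12 and not called, and the tissues differed on both diets (−1.38 ± 0.24 and −1.85 ± 0.25, liver minus eWAT, both called).

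Of 8 other JAK and STAT genes tested in eWAT, Stat6, the factor of interleukin-4, was called higher with cort on both diets (0.59 ± 0.14 and 0.50 ± 0.14). The list medians were −0.35 and −0.09, where 4.05% and 3.46% of all genes were called higher. In liver 0 of 7 were called with cort by edgeR. Of the 15 inhibitors, Socs2, the STAT5-induced brake on growth hormone signalling, fell most with cort in liver, though not in eWAT. In liver it went from 47.3 ± 22.1 to 10.8 ± 1.30 CPM on the NPD (−2.13 ± 0.31) and from 66.3 ± 25.1 (n = 3) to 10.6 ± 2.30 on the HPD (−2.65 ± 0.33), calls that held under every alternative. Socs5 was higher (0.82 ± 0.27 and 0.97 ± 0.28) and Ptprc lower (−1.89 ± 0.33 and −1.29 ± 0.34), beside macrophage markers at 87.3 to 155 CPM with cort and 170 to 234 with veh, whose part was not tested. With these, 1 inhibitor was called higher and 2 were called lower on each diet, and the list medians were 0.06 and −0.17. Shares of all liver genes called higher and lower were 6.84% and 5.79% on the NPD, and 4.75% and 5.14% on the HPD.

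Genes that STAT3 induces were split in direction. In eWAT, 3 of 19 were called higher on the NPD and 4 on the HPD, and 0 lower, with list medians of 0.08 and 0.13, where 4.05% and 3.46% of all genes were called higher. All of those called make acute phase proteins. Hp (haptoglobin) rose from 1084 ± 188 to 6420 ± 1004 CPM on the NPD and from 1639 ± 419 to 7208 ± 488 on the HPD, changes of 2.57 ± 0.17 and 2.14 ± 0.17. Orm3 rose by 0.85 ± 0.18 and 1.25 ± 0.18, and Orm1 by 0.51 ± 0.15 and 1.33 ± 0.15. Lcn2 on the HPD had 5.20, 6.63, 4.95 and 3.11 CPM with veh and 16.2, 17.9, 28.3 and 898 CPM with cort, the last in the library with epididymis transcripts. Its change was 5.59 ± 1.33 with that library and 2.06 ± 0.36 (adjusted p = 0.00116) without it. With that library kept, leaving out any 1 of the Veh HPD replicates ended the call (adjusted p = 0.0575 to 0.0841). So did limma voom (3.55, adjusted p = 0.123), a block for the replicate number (4.27, adjusted p = 0.145) and the fit of only the groups compared (5.55, adjusted p = 0.178).

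In liver, 4 of 25 STAT3-induced genes were called higher and 6 lower with cort on the NPD, and 5 higher and 4 lower on the HPD, at list medians of −0.07 and −0.16. Of all genes 6.84% were higher and 5.79% lower on the NPD, and 4.75% and 5.14% on the HPD. The higher ones included Lcn2 (4.86 ± 0.33 and 4.74 ± 0.36), Orm3 (2.74 ± 0.20 and 3.31 ± 0.22), Hp (1.21 ± 0.16 and 1.97 ± 0.19) and Lbp (1.24 ± 0.14 and 0.75 ± 0.15). The lower ones included Hamp, which encodes the iron hormone hepcidin (−1.21 ± 0.23 and −2.11 ± 0.25), Steap4 (−1.49 ± 0.32 and −1.79 ± 0.34), the factor Cebpb (−0.93 ± 0.25 and −1.44 ± 0.27) and genes of fibrinogen chains, Fgg (−0.92 ± 0.20) and Fgb (−0.73 ± 0.19) on the NPD and Fga (−0.71 ± 0.18) on the HPD. Hpx was lower on the NPD too (−0.66 ± 0.18), not called with cort on the HPD, and higher with the HPD under cort (1.27 ± 0.19). That diet comparison called 3 of the 25 higher and 1 lower, where it called 5.88% of all genes. Besides Hpx these were Orm3 (1.01 ± 0.18) and Hp (0.62 ± 0.16), higher, and Hamp (−1.32 ± 0.23), lower. The calls of Cebpb on the NPD, of Hpx and of this diet comparison were not followed through other settings. Of the rest, the left-out liver library ended 3. They were those of Lcn2 (2.66, adjusted p = 0.0607) and Fga (−0.46, adjusted p = 0.266) on the HPD and Fgb on the NPD (−0.73, adjusted p = 0.0858). Library totals ended that of Lbp on the HPD (0.53, adjusted p = 0.0512).

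Genes of growth hormone and STAT5 were lower or not called. In liver the list medians with cort were −0.65 on the NPD and −0.72 on the HPD, where 5.79% and 5.14% of all genes were called lower. Of the 8 genes, 2 were called lower in NPD mice and 4 in HPD mice, and 0 higher. Hsd3b5, a male-specific steroid enzyme, was among them on both diets (−2.74 ± 0.73 and −3.43 ± 0.79), as was Mup3 (−0.94 ± 0.25 and −1.70 ± 0.27), and Onecut1 and Igfals joined them on the HPD. With all 16 liver libraries the calls of Hsd3b5, Mup3, Onecut1 and Igfals were lost (adjusted p = 0.171 and 0.512 on the NPD for the first 2, and 0.131, 0.325, 0.0765 and 0.375 on the HPD). Leaving out 1 library ended the call of Hsd3b5 in 6 of 8 fits on the NPD (adjusted p up to 0.0638) and 3 of 7 on the HPD (up to 0.0568), and that of Igfals in 3 of 7, those without Veh HPD replicate 1 or 3 or Cort HPD replicate 2 (up to 0.0703). It ended that of Mup3 on the NPD without Cort NPD replicate 2 (−0.79, adjusted p = 0.0618) and that of Onecut1 without Veh HPD replicate 3 (−1.25, adjusted p = 0.0623). In eWAT 2 of the 8 could be tested, and Igf1, the hormone that growth hormone induces, was lower on both diets (−1.4997 ± 0.18 and −1.51 ± 0.18), which held under every alternative and with each library left out. Several calls of the other lists were weak as well. In eWAT on the NPD, those of Epor, Socs2 and Orm1 ended in 6 of 8 fits with 1 library left out (highest adjusted p 0.114, 0.253 and 0.114) and that of Csf2rb in 1 (0.0538, without Veh NPD replicate 3). On the HPD there, the call of Ptprc ended in 6 of 8 such fits (up to 0.2000), those of Il2rg and Stat6 in 4 (up to 0.110 and 0.0815) and that of Il10rb in 2 (up to 0.0641). In liver, the call of Socs5 ended in 8 of 8 such fits on the NPD (up to 0.173) and 4 of 7 on the HPD (up to 0.139), that of Il2rg on the HPD in 7 of 7 (up to 0.0999), that of Ptprc on the HPD in 3 of 7 (up to 0.0897), and that of Fga on the HPD in 2 of 7 (up to 0.155). Of the other settings, 6 of 8 ended the Socs5 call on the NPD and 3 of 8 that on the HPD. On the HPD in eWAT, 3 of 7 ended that of Ptprc and 3 of 6 that of Lcn2. Another 2 each ended those of Socs2 and Stat6 in eWAT and of Il2rg, Fga and Onecut1 on the HPD and Hsd3b5 on each diet in liver, and 1 each those of Epor, Orm1, Il10rb and Il2rg in eWAT.

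**Figure D4:**
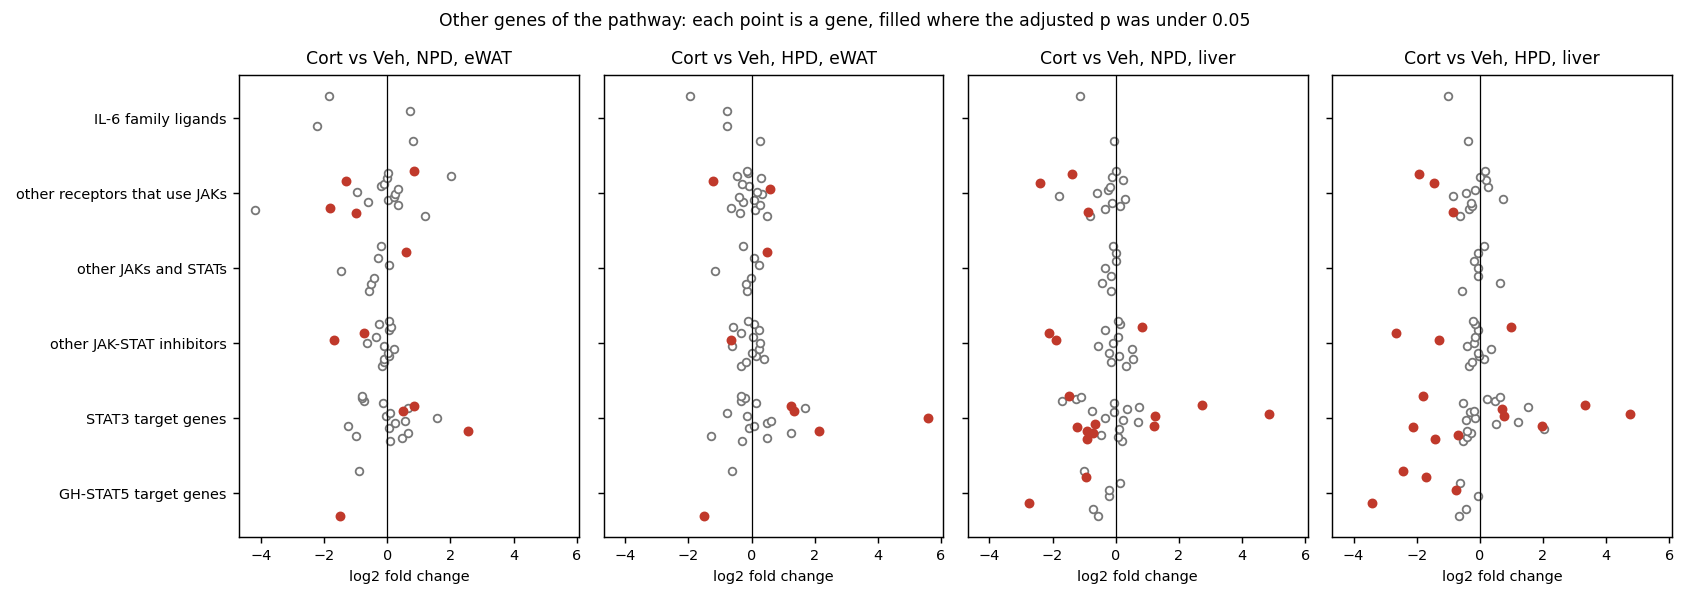
Each point is a gene of the list named at the left, placed by its log2 fold change with cort in eWAT (2 left panels) and liver (2 right panels), and filled where the adjusted p was under 0.05. STAT3 target genes have filled points on both sides of 0 in liver and to the right of 0 in eWAT, while all filled points of the GH-STAT5 targets lie below 0.

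For each tissue, the member with the smallest p for cort on the NPD was set against all other genes tested. In eWAT this was Il6st, and over the 16 libraries the genes whose log2 CPM was most alike included Lpar6 (r = 0.885) and Atp2b4 (0.875), out of 15177. In liver it was Jak1, and over 15 libraries the most alike were Fn1 (r = 0.861), C2cd2l (0.855) and Sptan1 (0.845), out of 12381. These coefficients include the differences between groups and share the scaling of each library, and they are given as a description.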

How the data were processed

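Total RNA of eWAT and liver was sequenced with QuantSeq 3′ libraries. The file the authors deposited is 1 table of raw counts, with Ensembl genes in rows, 1 column per library and no normalization. The submitters' processing notes name GRCm38 (mm10), R 4.0.3 and limma. The aligner, the counting program and its strand setting are not given in the sources used here. Of the gene IDs, 47224 had a symbol in GENCODE vM21 (GRCm38), 419 had none, and 22199 had no count. Sequences came from RefSeq promoter windows of GRCm38.p6. Conditions came from the sample titles, and 0 columns were left without a sample.

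Each tissue was fitted in R 4.3.3 with edgeR 4.0.16: filterByExpr (minimum count 10, minimum total 15), TMM factors, 1 mean per group, robust quasi-likelihood test and Benjamini-Hochberg adjustment over all genes tested (15187 in eWAT from 16 libraries, 12391 in liver from 15). Tissue differences came from 1 fit of 31 libraries with 16482 genes. Errors of fold changes are the log2 fold change divided by the root of the F statistic. The biological coefficient of variation was 0.372 in eWAT and 0.228 in liver, so mice more than depth set the precision, apart from Socs1 and Osmr in liver. Fold changes of genes with few reads depend on edgeR's prior count. Log2 CPM used a prior count of 2. Permutation p-values used 100000 permutations within groups.

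Alternatives were RLE factors, library totals without factors, no filter, DESeq2 1.42.0, limma voom (limma 3.58.1), only the groups compared, a block for the replicate number, the liver fit with all 16 libraries, and each library left out. Steps were tested on simulated data. The 10 genes, the pathway lists and the markers were chosen with earlier results of these data known, so no list is independent evidence of its direction. The text names all 10 genes. From each pathway list it names, for each cort comparison, at most 4 genes called higher and 4 called lower, those of smallest p whose groups did not overlap, and for likeness the 3 genes with the highest coefficient. Some results under this rule are not reported here. Il2rg on the NPD in eWAT, Cebpb on the NPD in liver, Hpx, and Il6, Ctf1 and the Socs1 counts were named after their values were seen. So were the diet calls of Orm1 and Prlr under veh in eWAT and of Orm3, Hp and Hamp under cort in liver. Those calls of Il2rg, Cebpb and Hpx and these diet calls were not followed through the alternatives.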

Additional observations from a re-analysis of the deposited data

Results flagged for a closer look

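In 70 groups of 4 libraries, 10 genes in 7 groups, the value farthest out was examined. Its gap to the nearest value was divided by the range of all 4, a test that chance passes in about 5% of groups. The test was passed in 2, no more than chance would give. Jak1 in eWAT of Veh NPD mice had 257 CPM in replicate 2, against 334 to 345 CPM in the other 3 libraries. Socs1 in eWAT of Cort HPD mice had 3.47 CPM in replicate 2, against 1.29 to 1.66 CPM in the others.

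The effect of cort on Il6st differed between the tissues on the NPD, by 0.73 ± 0.20 on the log2 scale, liver minus eWAT (adjusted p = 0.0269, edgeR's quasi-likelihood test in the fit of both tissues). The report gives the libraries on which this call rests.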

How the results depend on the processing

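The fold changes followed here leave out those of Il2rg on the NPD in eWAT, Cebpb on the NPD in liver and Hpx, and the diet calls of the pathway lists. From other settings, 781 of 847 values kept their direction and their side of the threshold. Another 48 lost the call, 5 gained it and 13 changed sign. With 1 library left out, 760 of 897 kept both, 109 lost the call, 6 gained it and 22 changed sign. The cause was not tested. DESeq2 gave no adjusted p for Lcn2 with cort on the HPD in eWAT. Counts of all genes called moved by over 1.5 times as follows. The HPD under veh in eWAT called 9 genes, 126 by DESeq2, 16 with library totals, 24 by limma voom, 30 without the filter and 4 with only the groups compared. The HPD under cort in eWAT called 74, 195 by DESeq2 and 165 with only the groups compared. The interaction in eWAT called 2, 14 by DESeq2, 4 without the filter and 0 with library totals or limma voom. In liver, all 16 libraries took cort on the NPD from 1565 to 998, the HPD under veh from 21 to 7, the HPD under cort from 729 to 371 and the interaction from 14 to 1. The HPD under veh in liver called 113 by DESeq2 and 56 without the filter, and the interaction 130 by DESeq2, 23 with library totals, 3 by limma voom, 72 without the filter and 9 with RLE factors. The tissue difference on the NPD went from 635 to 422 by limma voom, and that on the HPD from 514 to 842 by DESeq2 and 330 with only the groups compared.

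Of the 10 genes, cort on the HPD in eWAT called 0 by limma voom, without the filter and with only the groups compared. Cort on the NPD in liver called 1 by DESeq2 and with only the groups compared, and cort on the HPD in liver 1 with all 16 libraries. The HPD under cort in liver called 2 by DESeq2, the interaction in liver 1 by DESeq2, and the tissue difference on the NPD 0 with library totals. The changes of sign among other settings were these. With library totals, cort on the NPD in eWAT gave Jak1 −0.0090 and Osmr −0.077, cort on the HPD in liver gave Jak1 −0.13, and liver against eWAT gave Il6ra −0.85, Stat3 −0.46 and Bcl6 −0.66. With limma voom, Jak2 was 0.0075 on the NPD and Socs1 0.18 on the HPD in eWAT, and Socs3 0.15, Cish 0.17 and Bcl6 0.23 on the NPD in liver.

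With 1 library left out, all genes called ranged from 581 to 1265 for cort on the HPD in eWAT, 5 to 64 for the HPD under veh, 26 to 79 for the HPD under cort and 0 to 6 for the interaction there. In liver they ranged from 714 to 1113 for cort on the HPD, 5 to 34 for the HPD under veh, 356 to 622 for the HPD under cort and 2 to 39 for the interaction. Of the 10 genes, 0 to 1 were called for cort on either diet and for the HPD under veh in eWAT, for cort on the NPD in liver and for the tissue difference on the NPD, 0 to 2 for cort on the HPD in liver and 1 to 2 for the HPD under cort in liver. Fold changes that changed sign ranged, on the NPD in eWAT, from −0.012 to 0.12 for Jak1, −0.10 to 0.11 for Jak2 and −0.073 to 0.16 for Osmr, and on the HPD in eWAT from −0.46 to 0.59 for Socs1. In liver on the NPD they ranged from −0.066 to 0.28 for Stat3, −0.33 to 0.44 for Socs3, −0.75 to 0.30 for Cish and −0.63 to 0.25 for Bcl6, on the HPD from −1.57 to 0.095 for Cish, and between tissues from −0.52 to 0.24 for Socs1 and −0.15 to 0.99 for Bcl6.

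Replicate numbers were not taken to pair the libraries. Correlations of deviations from the group means ran from −0.115 to 0.253 over 24 pairs in eWAT, of which 1 was over 0.1, from −0.131 to 0.161 over 21 pairs in liver (3 over 0.1) and from −0.004 to 0.113 over 15 pairs across tissues (1 over 0.1). Across tissues 9 of 15 libraries correlated best with the library of their own number, a hint from the data and not from the design. With the replicate number as a block, the interaction in eWAT called 9 genes, Socs1 with cort on the HPD in eWAT was 0.039 and Socs3 with cort on the NPD in liver 0.047. Depth limits Socs1 and, in liver, Osmr.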
